A study of Mus musculus with 18 samples.

Results

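The 9 genes followed here belong to the hyaluronan-based matrix of the brain, and were read in 18 brain libraries: the hyaluronan synthases Has2 and Has3, the lectican proteoglycans Acan (aggrecan), Bcan (brevican), Ncan (neurocan) and Vcan (versican), the link proteins Hapln1 and Hapln4, and tenascin-R (Tnr). They were matched by gene symbol, and 9 of 9 were found among the 55416 genes counted and were among the 17174 read deeply enough to be tested. The study sequenced poly(A)+ RNA of the tissue resected around brain metastases in 3 mouse models, to compare the metastasis-associated microenvironment between them. All brains were labelled WT and taken 10 days after injection of 40000 cells. The tumour cells were B16-F10-BrM4 (labelled B16-F10_BrM4 as a line), derived from a mouse melanoma, in the melanoma model, 482N1 in the lung cancer model, and EO771-BrM3, derived from a mouse mammary carcinoma, in the breast cancer model. Each model had 6 brains. Melanoma brains are numbered 1 to 6, lung brains 7 to 11 and 13, and breast brains 14 to 19. Each model rests on 1 tumour line, no tumour-free brain was among the libraries, and the sources used here give no strain, age or site of injection.

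Hyaluronan is a long unbranched sugar that hyaluronan synthases spin out through the cell membrane. Lecticans bind it by their globular head, link proteins lock that bond, and tenascin-R ties the far ends of lecticans together. Around many parvalbumin-positive interneurons this mesh condenses into a perineuronal net, in which aggrecan is the defining proteoglycan, while brevican, neurocan and versican are also found in the looser matrix made by astrocytes, oligodendrocyte precursors and neurons. Has2 and Vcan are in addition made by many tumour and stromal cells outside the brain.

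In the mouse genome each lectican gene has a link protein gene beside it, with 0 protein-coding genes between them in RefSeq: Acan and Hapln3 on chromosome 7, Bcan and Hapln2 on chromosome 3, Ncan and Hapln4 on chromosome 8, and Vcan and Hapln1 on chromosome 13. The 250 bases upstream of the start of Acan (chr7:79052976-79053225 on the plus strand), Hapln3 (chr7:79131019-79131268 on the minus strand), Vcan (chr13:89742513-89742762 on the minus strand) and Hapln1 (chr13:89540386-89540635 on the plus strand) are shown because the lectican of each of these pairs differed between models while no difference passed the test for its neighbour. The sequences are RefSeq's, on build GRCm38.p6, written 5′ to 3′ on the strand of the gene. Capitals mark a GC box (GGGCGG) or a TATA box (TATAAA), each read on either strand.
Acan: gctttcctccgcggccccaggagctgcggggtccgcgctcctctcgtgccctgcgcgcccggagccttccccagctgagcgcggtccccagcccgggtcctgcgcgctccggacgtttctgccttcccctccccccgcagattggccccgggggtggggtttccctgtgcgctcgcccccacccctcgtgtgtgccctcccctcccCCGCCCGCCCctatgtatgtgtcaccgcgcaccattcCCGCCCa
Hapln3: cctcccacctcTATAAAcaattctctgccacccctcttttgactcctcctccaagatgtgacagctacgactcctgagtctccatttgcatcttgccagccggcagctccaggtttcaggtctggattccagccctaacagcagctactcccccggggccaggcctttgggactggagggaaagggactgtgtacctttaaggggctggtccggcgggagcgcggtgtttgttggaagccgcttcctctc
Vcan: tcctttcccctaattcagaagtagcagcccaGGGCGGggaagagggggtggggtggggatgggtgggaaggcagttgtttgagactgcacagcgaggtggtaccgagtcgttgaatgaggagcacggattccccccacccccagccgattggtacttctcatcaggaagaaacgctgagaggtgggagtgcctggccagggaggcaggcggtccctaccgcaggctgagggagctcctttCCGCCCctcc
Hapln1: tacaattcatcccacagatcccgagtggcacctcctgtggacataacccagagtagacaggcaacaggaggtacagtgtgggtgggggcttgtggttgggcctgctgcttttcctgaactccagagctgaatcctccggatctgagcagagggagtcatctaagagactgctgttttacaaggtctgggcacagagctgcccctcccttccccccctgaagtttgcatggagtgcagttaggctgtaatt
The Acan window held 3 GC boxes, at -44, -40 and -7 from the start, and the first and second of these share bases. The Vcan window held a GC box at -219 and another at -10, and neither link protein window held one. A GC box was found in 32.7% of the 32851 upstream windows of this length in RefSeq. The Hapln3 window held a TATA box at -239, a motif found in 12.4% of windows. An E box (CANNTG, either strand) stood at -179 in both Acan and Vcan and at -168 in Hapln3, apart from the motifs in capitals, and 66.2% of all windows held at least one. The motifs AP-1 (TGANTCA) and STAT (TTCNNNGAA), held by 6.75% and 7.02% of windows, were in none of these 4. GC made up 74.4% of the Acan window, 58.0% of that of Hapln3, 62.4% of that of Vcan and 54.4% of that of Hapln1, against a median of 52.4% over all windows. These are matches of letters only, and no binding was measured.

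The libraries held 7366250 to 14533877 counts, and 3 counts, taken here as the least that can be told from no reads, were 0.206 to 0.407 CPM (reads scaled to a fixed library size). Snap25, a synaptic gene of all neurons, was read at 1230.5 to 2492 CPM in every library, and 12 of 12 net-bearing interneuron markers were read. Melanocyte markers were read in the melanoma libraries (3909 to 23736 CPM summed over 10 genes, against 38.3 to 75.5 CPM in the others), and epithelial markers were highest in the lung libraries, and the share of tumour RNA in each library was not measured. In bulk tissue, fewer cells of a type and less RNA per cell cannot be told apart. Melanoma 3, breast 18 and breast 19 stood apart: long genes were read less in them, relative to the mean of the 18 libraries. The slope was that of log2 CPM, less each gene's mean over the 18 libraries, on log2 exon length. It was -0.192, -0.232 and -0.188 in these libraries, against -0.107 to 0.162 in the other 15. Levels below are CPM on scaled library sizes, as mean ± SD over 6 brains, and differences are log2 fold changes ± SE from edgeR's quasi-likelihood test. A gene was called at a Benjamini-Hochberg adjusted p under 0.05 over all genes tested.

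Of the 9 genes, Has2, Acan and Vcan differed among the 3 models. Each had its highest mean in the lung model, though for Vcan breast against lung was not called. Has2 and Acan were low in both other models, whereas Vcan was low in the melanoma model alone. In edgeR's test for any difference, the adjusted p was 8.45e-12 for Has2, 1.81e-09 for Acan and 9.86e-06 for Vcan, and ran from 0.158 to 0.541 for the other 6 genes. That is 3 of 9 called, where 35.8% of all genes tested were called. Between melanoma and lung, 3 of 9 were called (23.2% of all genes): all 3 were lower in melanoma, where 14.7% of all genes were lower and 8.51% higher. Their libraries did not overlap for the same 3 genes, as for 14.3% of all genes. Between breast and lung, 2 of 9 were called (18.3% of all genes). Both were lower in breast (7.16% of all genes, with 11.2% higher) and without overlap (14.9%). Between melanoma and breast, 2 of 9 were called (28.9% of all genes). Both were lower in melanoma (19.2% of all genes, with 9.76% higher), and 1 was without overlap (17.1%). The median log2 difference of the 9 genes was -0.43, -0.42 and 0.32 in the 3 comparisons, and that of all genes was 0.02, -0.02 and 0.04.

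**Figure D1:**
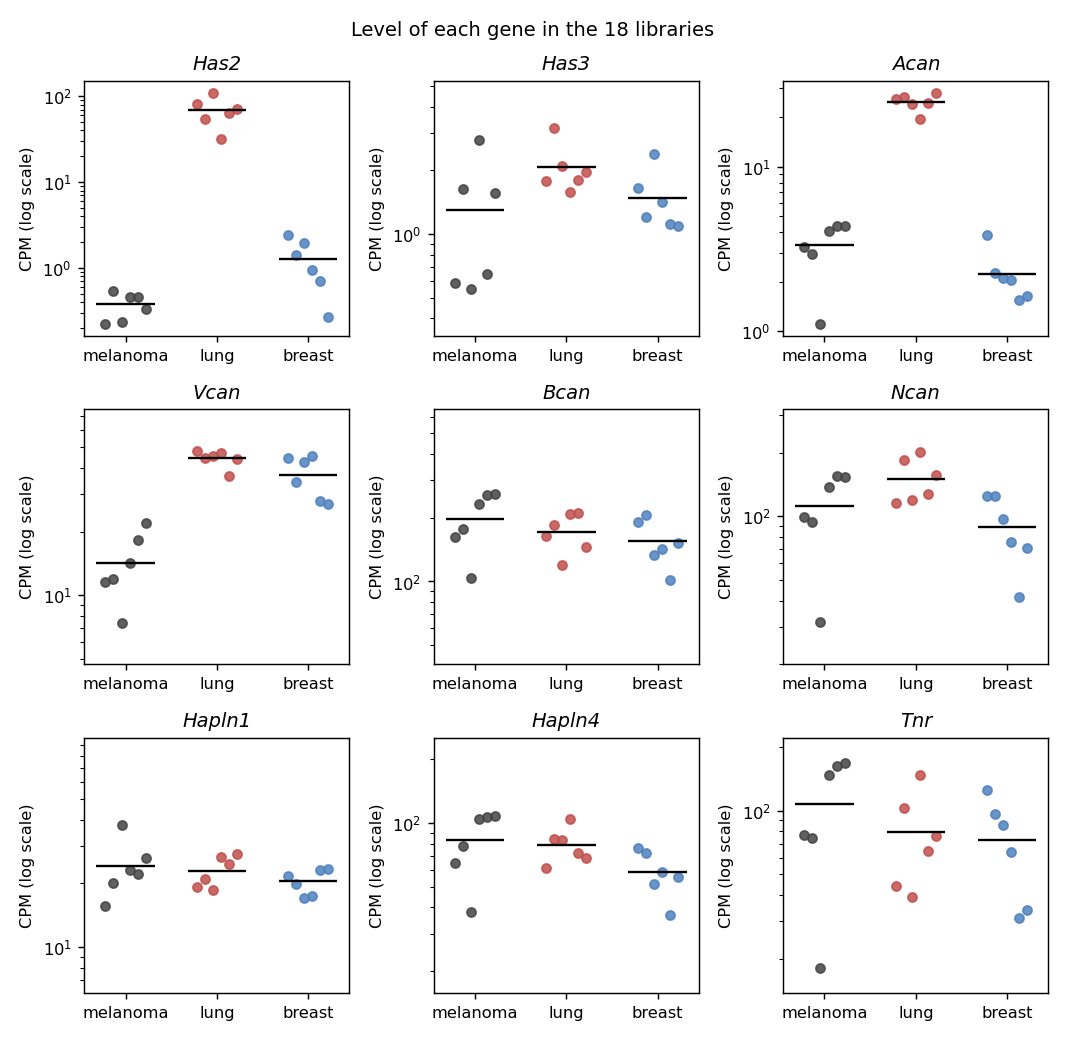
CPM of the 9 genes in each of the 18 libraries (logarithmic axis, 1 panel per gene); each point is a brain and each bar a model mean. Has2 stands at 32.2 to 110.3 CPM in the lung libraries and at no more than 2.44 CPM in any other, Acan is at 19.6 CPM or more in lung libraries alone, and Vcan is lowest in melanoma, while the panels of the other 6 genes overlap.

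Has2, the main hyaluronan synthase of most tissues, gave the widest difference. It stood at 32.2, 67.7 and 110.3 CPM (lowest, median and highest) in the lung libraries, from 5466 reads in all. In the melanoma libraries it stood at 0.221, 0.397 and 0.546 CPM, from 27 reads in all (3 to 7 per library, at or just above the floor), and in the breast libraries at 0.273, 1.18 and 2.44 CPM, from 95 reads, where brain 19 lay under the floor with 2 reads. The lung libraries lay apart from all 12 others, while melanoma and breast overlapped. The means were 69.0 ± 26.2 CPM in lung, 0.377 ± 0.135 CPM in melanoma and 1.29 ± 0.809 CPM in breast (SD, n = 6 each). In edgeR, Has2 was lower in melanoma than in lung by 181-fold (log2 -7.50 ± 0.41, adjusted p = 1.14e-10). It was lower in breast than in lung by 50.2-fold (-5.65 ± 0.36, adjusted p = 1.09e-09). These folds are set by a few reads in the lower model: over the alternatives the log2 difference from lung ran from -7.64 to -5.55 in melanoma and from -5.92 to -4.91 in breast, the smaller ones with limma on log2(CPM + 1). Melanoma fell below breast by 3.6-fold (-1.85 ± 0.46, adjusted p = 0.0044), a call that rests on 2 to 31 reads per library and was lost with limma on log2(CPM + 1), where the difference was -0.64 (adjusted p = 0.0911).

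Within the lung model, Has2 was highest in brain 9 at 110.3 CPM and lowest in brain 10 at 32.2 CPM. The 9 epithelial markers (Krt8, Krt18, Krt19, Krt7, Epcam, Cdh1, Cldn4, Cldn7 and Elf3) were highest and lowest in the same brains, with summed levels of 1321 CPM in brain 9 and 310.4 CPM in brain 10. The brains between did not keep that order: brain 8 stood at 918 CPM of these markers and 54.9 CPM of Has2, and brain 13 at 592 and 71.2 CPM. Microglia and macrophage markers summed to 2609.8, 2528, 2308, 1901, 1405 and 1391 CPM in brains 7, 9, 13, 11, 8 and 10, where Has2 stood at 81.5, 110.3, 71.2, 64.1, 54.9 and 32.2 CPM. The epithelial marker sum ranged from 310.4 to 1321 CPM in lung, 68.0 to 169.8 CPM in breast and 4.94 to 6 CPM in melanoma. Cldn4 had no reads in melanoma and breast, which allows up to 3 per library. Of the 6 epithelial markers tested, 6 were lower in melanoma than in lung and 4 were lower in breast. The 12 fibroblast markers summed to 2260.1 to 3844 CPM in lung, 647 to 980.0 CPM in breast and 633 to 1009 CPM in melanoma, with the highest sum in brain 10. In edgeR, 8 of 12 fibroblast markers were lower in melanoma than in lung (1 was higher) and 7 of 12 were lower in breast. Col6a2, a chain of collagen VI, stood at 11.1 ± 1.83, 105 ± 21.9 and 13.5 ± 2.14 CPM in melanoma, lung and breast (SD, n = 6). The part of epithelial tumour cells, of microglia and macrophages and of fibroblasts in the Has2, Acan and Vcan levels was not tested.

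Has3, which makes shorter hyaluronan chains, was low in all 3 models, with 7 to 41 reads per library. Its lowest, median and highest levels were 0.548, 1.11 and 2.79 CPM in melanoma, 1.58, 1.88 and 3.19 CPM in lung and 1.09, 1.31 and 2.39 CPM in breast. The models overlapped, and no comparison passed edgeR's test (melanoma against lung -0.69 ± 0.34, adjusted p = 0.18). Without melanoma 4, the melanoma library with the highest Has3, the difference from lung was -0.97 (adjusted p = 0.0304). Has1, the remaining synthase, stood at 0.726 ± 0.272, 0.948 ± 0.23 and 0.707 ± 0.352 CPM in melanoma, lung and breast (SD, n = 6), and no comparison passed the test for it either. Per kilobase of exon, the 3 synthases summed to 16.8 ± 6.18 CPM per kb in lung, 0.453 ± 0.185 in melanoma and 0.692 ± 0.186 in breast. Has2 made up 96.4% ± 1.51 of that sum in lung, 20.9% ± 6.98 in melanoma and 40.5% ± 17.4 in breast.

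**Figure D2:**
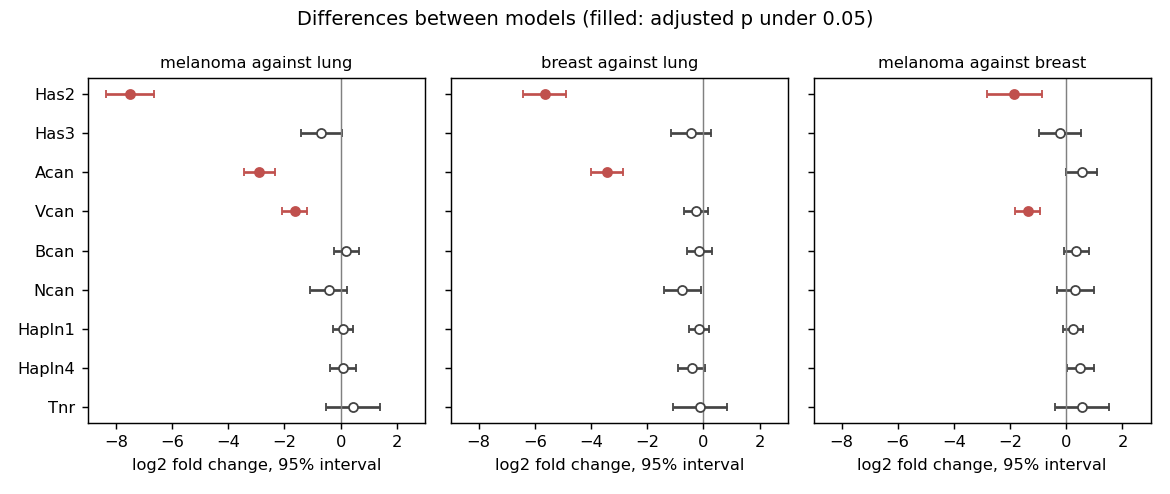
Log2 fold changes of the 9 genes in the 3 comparisons between models (points) with 95% intervals from edgeR (lines). Intervals that exclude 0 are those of Has2 in all 3 comparisons, Acan against lung in both, Vcan in melanoma against lung and against breast, Ncan in breast against lung (-1.41 to -0.10) and Hapln4 in melanoma against breast (0.03 to 0.98), of which the last 2 were not called after adjustment.

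Acan, the core proteoglycan of the condensed net, was the second gene set apart in the lung model. It stood at 19.6, 25.1 and 28.2 CPM in the lung libraries, with a coefficient of variation of 12%. It stood at 1.1, 3.66 and 4.38 CPM in melanoma and at 1.54, 2.07 and 3.86 CPM in breast. No melanoma or breast library reached the lowest lung library, while melanoma and breast overlapped. The means were 24.8 ± 2.97 CPM in lung, 3.35 ± 1.25 in melanoma and 2.24 ± 0.84 in breast (SD, n = 6). In edgeR, Acan was 7.4-fold lower in melanoma than in lung (-2.89 ± 0.26, adjusted p = 6.75e-08). It was 10.8-fold lower in breast than in lung (-3.43 ± 0.27, adjusted p = 1.72e-08). Melanoma was not called against breast (0.55 ± 0.27, adjusted p = 0.143, 95% interval -0.02 to 1.11). That difference was called without melanoma 3, at 0.78 (adjusted p = 0.00396), and without breast 14, at 0.78 (adjusted p = 0.0323).

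Nets surround parvalbumin-positive interneurons above all, so markers of these cells were set beside Acan. Pvalb, the calcium buffer that marks these cells, stood at 54.8 ± 9.74 CPM in melanoma, 62.8 ± 11.2 in lung and 60.4 ± 14.6 in breast (SD, n = 6), with adjusted p of 0.47 or more in edgeR. Of 12 such markers, which include Gad1 (GABA synthesis), Erbb4 (a receptor of these neurons) and Kcnab3 (a potassium channel subunit), 0 were called in any of the 3 comparisons by edgeR, 1 (Kcnab3, in melanoma against breast) by DESeq2 and 0 by limma voom. The median log2 difference of the list was 0.25, -0.08 and 0.45 between melanoma and lung, breast and lung, and melanoma and breast. At an unadjusted p under 0.05 the list held Gad1 at 0.035 and Kcnab3 at 0.0284, both in melanoma against breast. Their summed level was 501 to 1560.0 CPM in melanoma, 749 to 1207 CPM in lung and 592 to 1024 CPM in breast. Melanoma 3, breast 18 and breast 19 were also left out together, a choice made after seeing the data. Then 4 markers were higher in melanoma than in lung and 3 higher in melanoma than in breast. The numbers of all genes called in that setting are not given here, so these counts are not a result about the markers. Leaving out melanoma 3 alone raised the number of all genes called in melanoma against breast from 4966 to 8078.

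Vcan, which encodes a large proteoglycan of developing and injured tissue, had a different order. It stood at 7.37, 13.1 and 21.9 CPM in the melanoma libraries, at 36.6, 45.0 and 48.2 CPM in lung and at 26.9, 38.3 and 45.3 CPM in breast. All melanoma libraries lay below all others, while lung and breast overlapped. The means were 14.2 ± 5.18, 44.3 ± 4.11 and 36.9 ± 8.35 CPM (SD, n = 6). In edgeR, Vcan was 3.12-fold lower in melanoma than in lung (-1.64 ± 0.21, adjusted p = 6.02e-06). It was 2.61-fold lower in melanoma than in breast (-1.38 ± 0.21, adjusted p = 3.51e-05). Breast against lung did not pass the test (-0.26 ± 0.20, adjusted p = 0.433, 95% interval -0.69 to 0.16). The 12 markers of oligodendrocyte precursors, a source of Vcan in the adult brain, summed to 391 to 609 CPM in melanoma, 339 to 513 CPM in lung and 441 to 599 CPM in breast. In melanoma against lung, 1 of these markers was higher and 1 lower. Microglia and macrophage markers were low in melanoma alone, as Vcan was, with summed levels of 461 to 712 CPM in melanoma, 1391 to 2609.8 CPM in lung and 1569 to 2339 CPM in breast. In edgeR, 11 of the 11 tested were lower in melanoma than in lung and 10 of 11 lower than in breast. Astrocyte markers summed to 3272 to 4193, 7339 to 9654 and 6488 to 7149 CPM in melanoma, lung and breast. A large part of that sum came from Gfap and Vim, with means of 1376 and 1665 CPM over all libraries. Of the 12 astrocyte markers, 5 were lower in melanoma than in each other model. Their median log2 difference was -0.26 against lung and -0.28 against breast. The part of these cells in the Vcan level was not tested.

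Bcan and Ncan, the abundant lecticans of the adult and the young brain, were not called in any comparison. Bcan stood at 104, 204 and 258 CPM in melanoma, 119, 174 and 209.8 CPM in lung and 102, 147 and 207 CPM in breast. Ncan stood at 31.7, 118 and 155 CPM in melanoma, 116, 142 and 201 CPM in lung and 41.7, 86.4 and 125 CPM in breast. The models overlapped for both genes, and melanoma 3 and breast 18 were the lowest of their models for both. For Bcan the melanoma level differed from lung by 0.20 ± 0.21 (95% interval -0.25 to 0.65, adjusted p = 0.586 in edgeR), so a change of the size seen for Acan lay outside the interval. Breast differed from lung by -0.15 ± 0.21 for Bcan and by -0.75 ± 0.31 for Ncan (adjusted p = 0.688 and 0.11 in edgeR). The Ncan difference was called in a fit of the 12 lung and breast libraries alone, at -0.80 (adjusted p = 0.023), and without melanoma 3, at -0.80 (adjusted p = 0.0152). Melanoma against breast was called for Bcan without melanoma 3, at 0.54 (adjusted p = 0.0251).

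Among link proteins, Hapln1 binds the lecticans of many tissues and Hapln4 is the brain form that accompanies brevican. Hapln1 stood at 15.7, 22.7 and 37.6 CPM in melanoma, 18.6, 22.8 and 27.5 CPM in lung and 17, 20.8 and 23.5 CPM in breast. Hapln4 stood at 37.8, 91.1 and 108 CPM in melanoma, 61.1, 77.4 and 104 CPM in lung and 36.8, 57.1 and 76.5 CPM in breast. All 3 models overlapped for both. Melanoma 3 was the highest melanoma library for Hapln1 and the lowest for Hapln4. The Hapln1 differences in edgeR were 0.08 ± 0.17 for melanoma against lung, -0.17 ± 0.17 for breast against lung and 0.24 ± 0.17 for melanoma against breast. Their widest 95% interval bound was 0.61. For Hapln4, melanoma against breast was 0.50 ± 0.23 (adjusted p = 0.107), which became 0.70 (adjusted p = 0.00486) without melanoma 3. The other link proteins, Hapln2 of the nodes of myelinated axons and the broadly made Hapln3, were not called in any comparison either.

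Tnr, the crosslinker made by oligodendrocytes and interneurons, spread widely within each model. It stood at 18.1, 112 and 168 CPM in melanoma, 39.2, 70.4 and 147 CPM in lung and 31.0, 74.4 and 125 CPM in breast. The coefficient of variation was 56.0%, 51.3% and 50.7%, and the models overlapped throughout. The differences in edgeR were 0.45 ± 0.45, -0.12 ± 0.45 and 0.57 ± 0.46 (adjusted p of 0.57, 0.893 and 0.366), with 95% intervals that reach from -0.51 to 1.40 for melanoma against lung. Such an interval holds no change as well as a change of over 2-fold, so a difference in Tnr of that size was not excluded.

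**Figure D3:**
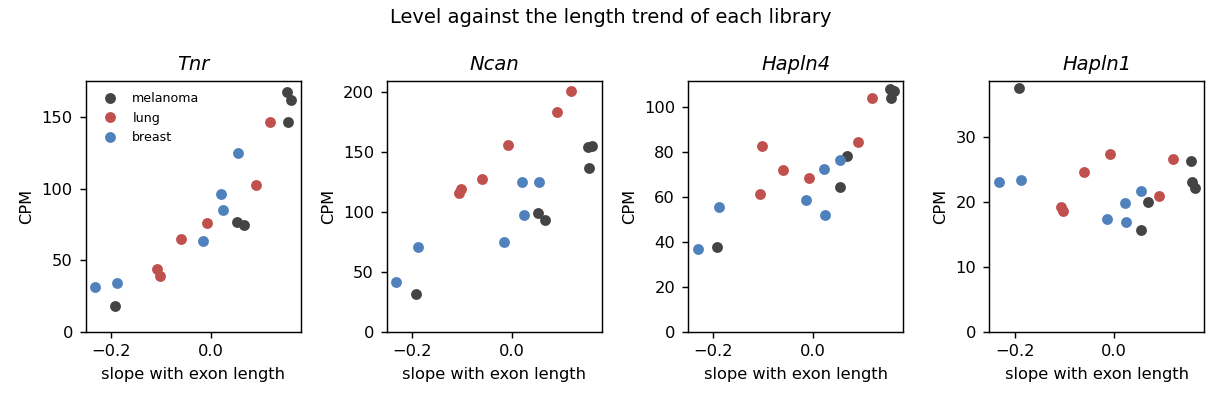
CPM of Tnr, Ncan, Hapln4 and Hapln1 (linear axes) against the length slope of each library, coloured by model. The slope is that of log2 CPM, less each gene's mean over the 18 libraries, on log2 exon length. Melanoma 3, breast 18 and breast 19 lie at the left at slopes of -0.188 and below, where Tnr stands at 18.1 to 33.9 CPM, and melanoma 4, 5 and 6 lie at the right, where it stands at 147 to 168 CPM.

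Tnr, with 12.87 kb of exon, was lowest in the libraries in which long genes were read least. Tnr stood at 18.1, 31.0 and 33.9 CPM in melanoma 3, breast 18 and breast 19, the libraries with the lowest slopes, and at 147 to 168 CPM in melanoma 4 to 6, whose slopes were 0.154 to 0.162. Hapln4, with 3.92 kb of exon, followed much the same pattern. It stood at 37.8 and 36.8 CPM in melanoma 3 and breast 18 and at 104 to 108 CPM in melanoma 4 to 6. Breast 19 (55.6 CPM) lay above breast 16 (51.8 CPM, slope 0.0244), so the order was not strict. Within the melanoma model the tumour markers moved with the same split: the melanocytic sum was 15739, 14076 and 23736 CPM in brains 1, 2 and 3, where Tnr stood at 77.0, 74.4 and 18.1 CPM, and 7535, 4803 and 3909 CPM in brains 4, 5 and 6. The neuron marker sum was 7017, 7920.0 and 5661 CPM in brains 1 to 3 and 10585 to 11896 CPM in brains 4 to 6. The part of tumour and neuron content in the Tnr levels was not tested. With the length trend removed, the same genes were called as with it kept: Has2, Acan and Vcan in melanoma against lung, Has2 and Acan in breast against lung, and Has2 and Vcan in melanoma against breast. The cause of the differing slopes was not tested.

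Compared per kilobase of exon, Bcan was the most abundant of the 9 genes in every model, at 48.7 ± 15 CPM per kb in melanoma, 42.3 ± 8.84 in lung and 38.0 ± 9.4 in breast (SD, n = 6). In melanoma it was followed by Hapln4 (21.2 ± 7.25), Ncan (15.6 ± 6.6), Tnr (8.36 ± 4.68), Hapln1 (4.09 ± 1.26), Vcan (0.982 ± 0.358), Acan (0.449 ± 0.168), Has3 (0.203 ± 0.138) and Has2 (0.0889 ± 0.0317), in CPM per kb. In that order only Bcan and Hapln4, Hapln1 and Vcan, and Vcan and Acan lay further apart than their SDs between libraries. These SDs leave out that the genes were read in the same libraries. In every melanoma library Hapln4 stood above Ncan, Ncan above Tnr and Acan above Has3. In lung the order was Bcan, Ncan (20.9 ± 4.97), Hapln4 (20 ± 3.83), Has2 (16.3 ± 6.19), Tnr (6.14 ± 3.15), Hapln1 (3.88 ± 0.655), Acan (3.32 ± 0.397), Vcan (3.07 ± 0.284) and Has3 (0.324 ± 0.0906). Has2 stood last in melanoma and beside the main brain matrix genes in lung. In lung only the steps from Bcan to Ncan, from Has2 to Tnr and from Vcan to Has3 exceeded the SDs. In brain 10, however, Tnr (11.4 CPM per kb) stood above Has2 (7.6 CPM per kb). In breast the order was Bcan, Hapln4 (14.9 ± 3.68), Ncan (12.4 ± 4.58), Tnr (5.63 ± 2.86), Hapln1 (3.46 ± 0.474) and Vcan (2.55 ± 0.577). Has2 (0.304 ± 0.191), Acan (0.300 ± 0.113) and Has3 (0.232 ± 0.0778) came last, and only the steps from Bcan to Hapln4 and from Vcan to Has2 exceeded the SDs. Ncan nevertheless stood above Tnr in every breast library.

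The make-up of the lecticans is given as shares, which were not tested. Per kilobase, the 4 lecticans summed to 65.7 ± 22.1 CPM per kb in melanoma, 69.7 ± 11.9 in lung and 53.3 ± 14 in breast. Acan made up 4.92% ± 1.15 of the sum in lung, 0.669% ± 0.103 in melanoma and 0.563% ± 0.123 in breast. The lung libraries held 3.08% or more of Acan and no other library held over 0.791%. Vcan made up 4.53% ± 1 in lung, 4.97% ± 1.26 in breast and 1.5% ± 0.169 in melanoma, where no library held over 1.74%. Brevican transcripts were the bulk in all models, with 60.5% ± 4.94 in lung, 75.1% ± 4.24 in melanoma and 71.8% ± 3.79 in breast. The lung libraries (55.8% to 68.7%) lay below all melanoma libraries (72.6% to 83.5%). The 83.5% was that of melanoma 3, the melanoma library with the lowest length slope. These shares were not corrected for the length trend, and exon lengths differ between lecticans (4.06 kb for Bcan, 14.46 kb for Vcan). Ncan made up 30% ± 4.29 in lung, 22.7% ± 4.22 in melanoma and 22.7% ± 3.71 in breast. The 4 link proteins summed to 37.0 ± 6.83, 36.7 ± 4.47 and 28.5 ± 5.01 CPM per kb in melanoma, lung and breast. Hapln4 made up 56.5% ± 13.1, 54.3% ± 5.03 and 51.9% ± 5.8 of them and Hapln1 11.3% ± 4.21, 10.7% ± 2.35 and 12.4% ± 2.71.

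**Figure D4:**
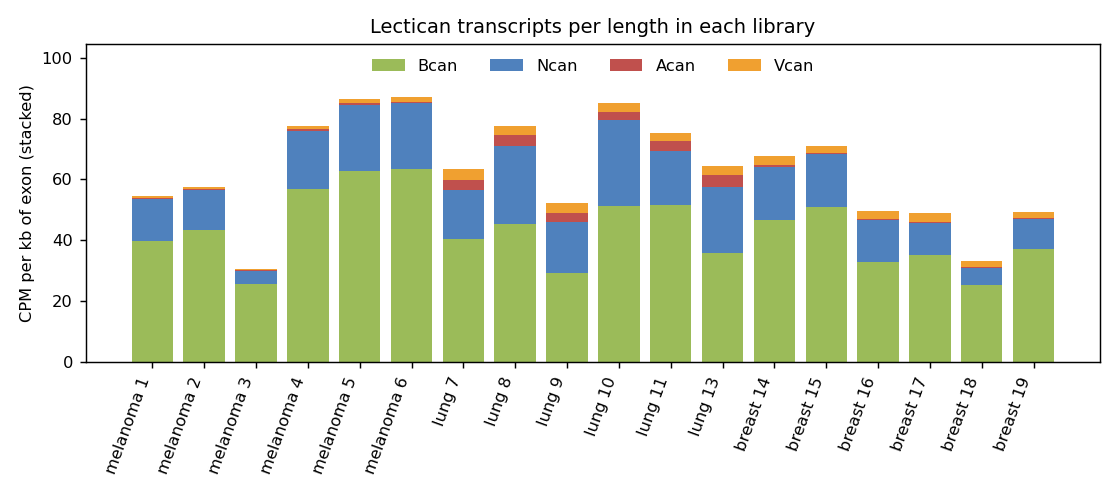
Stacked CPM per kb of the 4 lecticans in each library. Bcan and Ncan fill most of every bar, and Acan and Vcan together form a visible band in the lung libraries, where they make up 4.92% and 4.53% on average.

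Each lectican was then set against the link protein gene beside it, as a log2 ratio of reads within a library, which library size does not touch. The ratios were not corrected for the length trend, and exon lengths differ within pairs (14.46 kb for Vcan, 5.9 kb for Hapln1). Melanoma 3 had the lowest melanoma ratio for every pair. The ratios gave 12 comparisons, tested by an exact two-sided permutation test over the 924 splits of 6 against 6 and adjusted over the 12. The smallest p such a test can give is 0.00216, or 0.00649 once adjusted here. The Acan to Hapln3 ratio, in log2, was 4.06 ± 0.34 in lung, 1.14 ± 0.55 in melanoma and 0.25 ± 0.35 in breast (SD, n = 6). Both differences from lung were without overlap (exact permutation, adjusted p = 0.00649 each). The ratio was also 0.89 higher in melanoma than in breast, with overlap (exact permutation, adjusted p = 0.0216). The Vcan to Hapln1 ratio was -0.80 ± 0.79 in melanoma, 0.96 ± 0.32 in lung and 0.83 ± 0.51 in breast, with melanoma apart from both (exact permutation, adjusted p = 0.00649 each). These are the pairs whose upstream windows are printed above. The Ncan to Hapln4 ratio was lower in melanoma (0.35 ± 0.32) than in lung (0.93 ± 0.24), by -0.58 (exact permutation, adjusted p = 0.0156). Neither gene was called alone in that comparison. In breast the ratio was 0.55 ± 0.29, which differed from lung by -0.38 (exact permutation, adjusted p = 0.0668). With libraries left out, the adjusted p of that breast comparison ran from 0.0173 to 0.206 in the permutation test. The Bcan to Hapln2 ratio differed by 0.30 or less, with adjusted p of 0.525 to 0.755 by the exact permutation test. With libraries left out, the difference ran from 0.15 to 0.58 in melanoma against lung and from 0.02 to 0.39 in melanoma against breast. The lowest adjusted p of the permutation test were then 0.0325 and 0.0173, so these 2 results depend on the libraries kept.

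**Figure D5:**
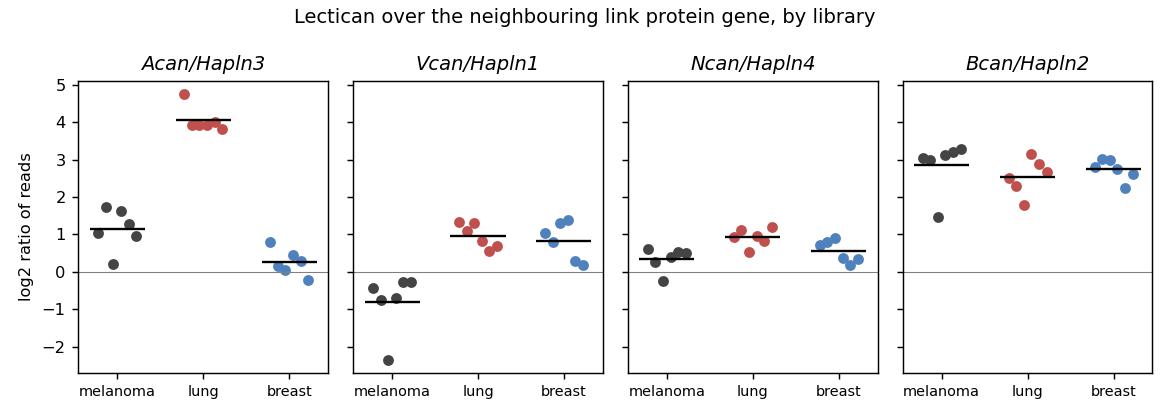
Log2 ratio of reads of each lectican to those of its neighbouring link protein in the 18 libraries (points) with model means (bars). Acan to Hapln3 is at 3.82 to 4.75 in lung and at no more than 1.74 elsewhere, and Vcan to Hapln1 is below -0.25 in all melanoma libraries and above 0.19 in all others.

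Across brains of the same model, Ncan, Tnr, Hapln4, Bcan, Acan and Vcan varied together and Hapln1 apart from them. Deviations of log2 CPM from the model mean were compared over the 18 libraries, which share depth and the reading of long genes, so the values are descriptions. Ncan went with Tnr (Pearson r = 0.96), Hapln4 (0.93), Bcan (0.87) and Acan (0.84). Vcan had r of 0.80 with Acan, 0.79 with Tnr, 0.78 with Ncan, 0.76 with Hapln4 and 0.63 with Bcan. Hapln1 had negative r with the other 8 genes, from -0.46 with Acan to -0.12 with Bcan. Has2 had r of 0.53 with Acan and 0.43 with Vcan. Among 16313 genes ranked by the same measure, those most like each gene were Atp10d (0.853) and Cttnbp2nl (0.842) for Has2, Rftn1 (0.961) and Ppfia4 (0.936) for Acan, and Sfxn3 (0.941) and Abcg1 (0.933) for Vcan. They were Reep2 (0.979) and Grin2c (0.978) for Bcan, Sez6l (0.988) and Tcf4 (0.986) for Ncan, and Ank2 (0.997) and Plxna2 (0.995) for Tnr. For Hapln4 they were Car10 (0.976) and Rap1gap2 (0.975), for Hapln1 1110032A03Rik (0.898) came first, and for Has3 they were Gm43437 (0.778) and Mzf1 (0.776).

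Of 16 other genes of hyaluronan synthesis, binding and breakdown 14 were tested. In melanoma against lung 6 were lower and 2 higher (median log2 difference -0.38), in breast against lung 1 was lower and 1 higher (0.18), and in melanoma against breast 5 were lower and none higher (-0.14). The counts without melanoma 3, breast 18 and breast 19 were 5 and 2, 1 and 1, and 5 and 0. Ugdh, the enzyme that makes UDP-glucuronate, a building block of hyaluronan and chondroitin sulphate, stood at 34.8 ± 7.11 CPM in melanoma, 139 ± 35.1 in lung and 60.0 ± 8.62 in breast (SD, n = 6). Ugdh was lower than in lung by -2.0 ± 0.18 in melanoma and by -1.21 ± 0.17 in breast (adjusted p = 5.74e-08 and 3.52e-05 in edgeR). Like Has2, it was thus highest in lung. Cemip2, a cell surface hyaluronidase, stood at 14.7 ± 5.1, 47.5 ± 8.88 and 59.7 ± 15.9 CPM in melanoma, lung and breast, and Layn, a hyaluronan receptor, at 4.96 ± 0.981, 13 ± 1.46 and 24.3 ± 9.31 CPM. Both were lower in melanoma than in either other model, and for Layn breast was higher than lung by 0.90 ± 0.20 (adjusted p = 0.00319 in edgeR). Cd44, the main hyaluronan receptor, stood at 115 ± 59.2, 147 ± 42.6 and 158 ± 36.1 CPM and was not called in any comparison.

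Of 16 other genes of nets and brain matrix, 3 were lower in melanoma than in lung (median log2 difference -0.09), 3 lower in breast than in lung (-0.24), and 2 lower and 1 higher in melanoma than in breast (0.16). Without melanoma 3, breast 18 and breast 19 these were 4 lower and 1 higher in each comparison with lung, and 3 lower and 3 higher in melanoma against breast. Tnc, the tenascin of developing and injured tissue, stood at 7.44 ± 3.17 CPM in melanoma, 124 ± 34.1 in lung and 70.6 ± 23.4 in breast (SD, n = 6). Tnc was lower in melanoma by -4.06 ± 0.34 against lung and by -3.25 ± 0.32 against breast (adjusted p = 2.43e-08 and 2.53e-07 in edgeR), in the same order as Vcan. Sema3a, a guidance cue that binds the chondroitin sulphate of nets, stood at 14.7 ± 5.85, 31.9 ± 3.67 and 49.5 ± 11.7 CPM and was lower in melanoma than in both others. Sdc3, a heparan sulphate proteoglycan of neurons, stood at 189 ± 59, 481 ± 61.2 and 262 ± 71.9 CPM and was lower than lung in both other models. Tnr, the sister gene of Tnc in nets, shared none of these calls.

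Lecticans carry chondroitin sulphate. Of 20 listed genes for its enzymes 18 were tested, and the shares of all genes called in each direction are those given above. In melanoma against lung 7 were lower and 2 higher (median log2 difference -0.27), in breast against lung 3 were higher (0.14), and in melanoma against breast 8 were lower and 1 higher (-0.34). Without melanoma 3, breast 18 and breast 19 these were 6 lower and 3 higher, 2 higher, and 8 lower and 1 higher. Chsy3, a chain polymerase, stood at 116 ± 45.8 CPM in melanoma, 12.3 ± 3.05 in lung and 7.78 ± 2.26 in breast (SD, n = 6). It was higher in melanoma by 3.24 ± 0.26 against lung and by 3.88 ± 0.27 against breast (adjusted p = 2.12e-08 and 3.48e-09 in edgeR). The related polymerase Chsy1 went the other way, at 14.9 ± 1.39, 37 ± 4.65 and 33.4 ± 4.05 CPM, and was lower in melanoma than in both. Chst12, a chondroitin 4-sulphotransferase, stood at 18.5 ± 1.43, 23 ± 2.37 and 40.0 ± 5.69 CPM and was highest in breast.

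Of 12 proteases that cleave lecticans or are close kin of those that do, all 12 were tested. In breast against lung 4 were higher and 1 lower (median log2 difference 0.11), in melanoma against lung 3 were higher and 4 lower (-0.58), and in melanoma against breast 2 were higher and 6 lower (-0.77). Without melanoma 3, breast 18 and breast 19 these were 5 and 1, 3 and 5, and 1 and 6. Mmp3, stromelysin, stood at 222 to 1939 CPM in breast and at 0.545 to 2.9 CPM in lung. In melanoma it stood at 0.156 to 1.99 CPM, where the lowest lay under the floor. It was higher in breast than in lung by 9.05 ± 0.60 (adjusted p = 2.01e-09 in edgeR). The size of that difference is set by a few reads in lung, and it ran from 8.2 to 9.26 over the alternatives. Adamts8 stood at 2.49 ± 1.14, 3.61 ± 0.684 and 16.9 ± 4.13 CPM (SD, n = 6) in melanoma, lung and breast and was highest in breast. Adamts5, the main aggrecanase of cartilage, was highest in lung, as Acan was, at 4.57 ± 0.61, 14.9 ± 4.5 and 3.04 ± 0.608 CPM. It was lower than lung by -1.71 ± 0.20 in melanoma and by -2.28 ± 0.21 in breast (adjusted p = 1.93e-06 and 1.22e-07 in edgeR). The protein products, their activity and the nets themselves were not measured.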

How the data were processed

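Poly(A)+ RNA of 18 brains was sequenced from directional libraries, per the labels' protocols. The submitters' processing notes name bcl2fastq and GRCm39. Aligner, read counter and the strand used in counting are not given in the sources used here. Raw counts per mouse Ensembl gene were deposited, as whole numbers that the authors did not normalize. The CPM table the authors deposited holds CPM for 16925 genes. Whole reads were recovered from 100.0% of its values (tolerance 0.01) over 15366 rows matched by symbol, of which 99.77% or more matched the counts.

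Symbols and exon lengths came from the GENCODE M21 annotation by gene ID (52135 of 55416 IDs, 99.9% of reads). No pair of libraries was identical, and chi-square per degree of freedom between replicates was 2.82 or more. Replicates are separate brains, per the series' design text. Counts of all 18 libraries were fitted with edgeR 4.0.16 in R 4.3.3 (TMM factors, filterByExpr, robust quasi-likelihood, 1 coefficient per model), with Benjamini-Hochberg adjustment over 17174 genes. The fit was tested on simulated data in which few genes changed and no length trend was put in. That test therefore does not cover data like these, where many genes were called and libraries differed in the length trend. Ratios of reads used a pseudocount of 0.5 and scipy 1.17.1. Likeness used log2 CPM with a prior count of 2. Totals of 7366250 to 14533877 counts set the precision, and 3 counts were the floor. Intervals are 95% intervals of the fit, and intervals and floors cover counting of reads, not of independent molecules. If the counting ignored strand, reads of Has2 and Has2os, Has3 and Chtf8, and other overlapping genes cannot be told apart.

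The genes and lists were chosen with earlier results of these data known. Named were the 9 genes, Hapln2, Hapln3, Has1, Cd44, the 3 genes with the smallest p for any difference in each other list (mean of at least 1 CPM), of which a part is described, and the 2 genes most like each of the 9, of which 1 is not reported here. Pvalb, Erbb4, Itgam and Tubb3 were added after their values were seen. Chst15, Itgam, Neurod1 and Tubb3 are listed at 0 in all 18 libraries and carry no value here. Alternatives were DESeq2 size factors, upper quartile factors and library totals, other filters, DESeq2 1.42.0, limma 3.58.1 (voom, and log2 of the deposited CPM plus 1 or 0.1), fits of the 12 libraries compared and each library left out. Chosen after seeing the data were leaving out melanoma 3, breast 18 and breast 19, removing the length trend, reads recovered from CPM, and leaving out libraries for the ratios. Promoter windows came from RefSeq (GRCm38.p6), which held 6 of the 9 genes.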

Additional observations from a re-analysis of the deposited data

Results flagged for a closer look

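Of 27 sets of 6 libraries, 1 for each gene and model, 3 held a library whose gap to its nearest neighbour was a large part of the range (above Dixon's 95% critical value). Chance alone flags about 1 in 20 such sets. Has3 in lung brain 8 stood at 3.19 CPM, where the other lung libraries stood at 1.58 to 2.1 CPM. Acan in breast brain 14 stood at 3.86 CPM, where the others stood at 1.54 to 2.25 CPM. Vcan in lung brain 11 stood at 36.6 CPM, where the others stood at 44.2 to 48.2 CPM.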

How the results depend on the processing

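No paired analysis was possible because the models share no library numbers. The calls of Has2 and Acan against lung in both comparisons, and of Vcan in melanoma against lung and against breast, were kept under all 31 alternatives, with differences of -7.64 to -5.55 and -5.92 to -4.91 for Has2, -3.00 to -2.58 and -3.66 to -3.01 for Acan, and -1.86 to -1.50 and -1.65 to -1.20 for Vcan. In melanoma against breast, the Has2 call was lost with limma on log2(CPM + 1), and Has2 was too low to be tested in the fit of those 12 libraries. Without melanoma 3, breast 18 and breast 19, Acan (0.63, adjusted p = 0.0214) and Hapln4 (0.58, adjusted p = 0.0234 in edgeR) were called beside Has2 and Vcan. The numbers of all genes called in these settings are not given here. With each library left out in turn, 3 to 4, 2 to 3 and 2 to 5 of the 9 genes were called between melanoma and lung, between breast and lung and between melanoma and breast, and 3 to 5 for any difference, the highest of the last 2 counts without melanoma 3 (Has2, Acan, Bcan, Vcan and Hapln4 in melanoma against breast). Over all genes these counts were 3495 to 4623, 2575 to 4113, 4520 to 8078 and 5653 to 8720. The 8078 in melanoma against breast also came without melanoma 3. Small differences that were not called changed sign, and the cause was not tested. In melanoma against lung these were Hapln3 (0.001 without a filter, 0.06 without the 3 libraries, -0.20 to 0.07 with each library left out), Hapln1 (-0.09 without the 3 libraries, -0.09 to 0.18 with each left out) and Hapln4 (-0.0002 to 0.24 with each left out). In breast against lung these were Tnr (0.16 without the 3 libraries, -0.34 to 0.15 with each left out), Cd44 (-0.04 without the 3 libraries, -0.05 to 0.21 with each left out) and the Vcan to Hapln1 ratio (0.17 without the 3 libraries). In melanoma against breast this was Has1 (-0.11 to 0.34 with each left out). Depth limits Has2 outside lung, Has1 and Has3, which rest on 2 to 41 reads per library.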
